A study of Mus musculus with 6 samples.

Results

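Krüppel-like factors (KLF) and CCAAT/enhancer-binding proteins (C/EBP) are DNA-binding transcription factors whose transcripts respond to cytokines, serum, hormones and stress. Here, 10 of their genes were examined, namely Klf2, Klf4, Klf5, Klf6, Klf9, Klf10, Klf13, Cebpa, Cebpb and Cebpd, which were taken by symbol from the 16880 genes of the expression table. All 10 had a row and all 10 had enough reads to be tested. RNA was sequenced from 3 libraries of cells given 10 ng/mL IL-1β and from 3 libraries of cells given 10 ng/mL IL-1β together with 10 μmol/L NP-G2-044, for 24 h in the methods. The cytokine IL-1β drives inflammation in joints, and NP-G2-044 inhibits FSCN1 (fascin), a protein that bundles actin filaments. Both groups received IL-1β, and cells without it were not analysed here, so each comparison is of the inhibitor on an IL-1β background.

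The sample labels name the cells as ATDC5, a mouse chondrogenic line, whereas the methods describe primary mouse articular chondrocytes. The treatment label of the inhibitor samples reads NP-G2-047, and their titles read NP-G2-044. Of 13 chondrocyte markers, Acan, Col9a1, Col9a2, Hapln1 and Cnmd had no row in the table, which is not a measured 0, and Matn1 had no reads in any library. Col2a1 averaged 0.217 TPM in the IL-1β libraries and 0.04 TPM in the inhibitor libraries (TPM, the read count scaled to gene length and library size, n = 3 each), and Comp and Matn3 averaged below 0.1 TPM in both groups. Other listed markers were measured at low levels, with means of 5.01 and 3.43 TPM for Col11a2, 6.44 and 11.4 TPM for Sox9, and 10.3 and 2.27 TPM for Sox5 (without and with the inhibitor). Library totals were 16615824 to 17735860 reads, and log2 CPM correlated across genes at 0.993 or more between libraries of a group and at 0.918 or less between groups (genes are not independent replicates). The methods call the libraries biological replicates and the labels do not say whether the cultures were separate, so the p-values measure the spread between these libraries, which may be technical. In RNA from whole cultures, fewer cells of a type and less RNA per cell cannot be told apart.

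KLF proteins bind GC-rich and CACCC sequences through 3 zinc fingers at the C-terminus and differ in the domains before them, so that some mostly activate and others mostly repress. C/EBP proteins bind as dimers through a basic leucine zipper. C/EBPβ and C/EBPδ are known for driving inflammatory and acute-phase genes downstream of IL-1 and IL-6 and for the early steps of fat cell differentiation, whereas C/EBPα is known for its role in mature fat cells, liver and myeloid cells. In some cell types KLF2 and KLF4 are known as factors that dampen inflammatory gene expression, and KLF10 was first described as a gene induced early by TGF-β.

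Sequence upstream of the transcription start is shown for the 4 risen KLF genes that RefSeq's promoter table (GRCm38.p6) covers with the largest fold changes, and for Cebpb, the most abundant C/EBP member with IL-1β. Promoters of 7 of the 10 members were in that table. Each line gives the strand of the gene, 5′ to 3′, and capitals mark matches on either strand to the motifs named in the next paragraph.
Klf2, from 130 bases before the start, chr8:72318932-72318971, plus strand: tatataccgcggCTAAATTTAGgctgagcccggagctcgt
Klf4, from 240 bases before the start, chr4:55532656-55532715, minus strand: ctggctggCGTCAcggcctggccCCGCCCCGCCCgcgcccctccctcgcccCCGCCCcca
Klf6, from 140 bases before the start, chr13:5861349-5861438, plus strand: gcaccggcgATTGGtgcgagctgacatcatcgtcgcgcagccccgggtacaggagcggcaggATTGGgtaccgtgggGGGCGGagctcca
Klf9, from 100 bases before the start, chr19:23141126-23141185, plus strand: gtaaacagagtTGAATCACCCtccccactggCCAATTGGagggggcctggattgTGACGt
Cebpb, from 60 bases before the start, chr2:167688855-167688914, plus strand: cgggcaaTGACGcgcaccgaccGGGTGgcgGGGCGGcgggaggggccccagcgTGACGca

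The motifs were searched on both strands of the 250 bases before each start, and the shares are of all 32851 promoters in the table. Distances count from RefSeq's start, which for Klf2, Klf4 and Klf6 is not the same base as the start of the GENCODE gene printed further on. A MEF2 site, the A/T-rich element bound by MEF2 factors, lay 118 bases before the RefSeq start of Klf2 and in no other of the 7 member promoters, against 0.508% of all promoters. TGACG, the core of the site bound by CREB and ATF factors, was in 5 of the 7 (Klf2, Klf4, Klf9, Klf13 and Cebpb) and in 17.8% of all. GGGCGG, the GC box bound by SP and KLF factors, was in 5 of the 7 and in 32.7% of all, with 5 matches in Cebpb and 4 in Klf4, some of which overlap each other. CACCC was in 5 of the 7 and in 52% of all. CCAAT was in Klf6, Klf9 and Klf13, and in 33.8% of all, with 4 matches in Klf6. TGANTCA, which is looser than the AP-1 site TGA(C/G)TCA, was in Klf9 alone and in 6.75% of all. The Klf9 match reads TGAATCA, which is not the AP-1 site itself, and overlaps the CACCC match. TATAAA was in Cebpa alone and in 12.4% of all. The SRF CArG box (1.47% of all), the palindromic C/EBP site TTGCGCAA (0.164% of all) and TGATGNAA, a form of the element shared by C/EBP and ATF4 (3.45% of all), were in none of the 7. The windows of the 7 members had a GC content from 59.6% (Klf9) to 81.6% (Cebpb), and that of all promoters was not computed. The part of GC content in the counts of GC-containing motifs was not tested. These are matches of letters, not sites shown to be bound.

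With NP-G2-044, 6 of the 10 genes rose, all of them KLF genes, and 2 fell, Klf10 and Cebpd. Cebpa and Cebpb did not pass the test, which was edgeR's quasi-likelihood test with an adjusted p below 0.05. Across all 11983 genes tested, 80.0% passed it, 40.2% higher and 39.8% lower, so 8 called genes among 10 equal the share over all genes. Past the second cutoff, a log2 fold change above 1 in size, 4 of the 10 genes were higher (Klf2, Klf4, Klf5 and Klf6), against 6.48% of all tested genes, and 0 were lower, against 10.1% of all. No test was made of these counts, since the members were chosen with results of these data known. The median log2 fold change was 0.79 over the 10 members and 0.0018 over all tested genes. The TPM of the 3 libraries of each group did not overlap for 8 of the 10 genes, as for 79.4% of all tested genes.

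**Figure D1:**
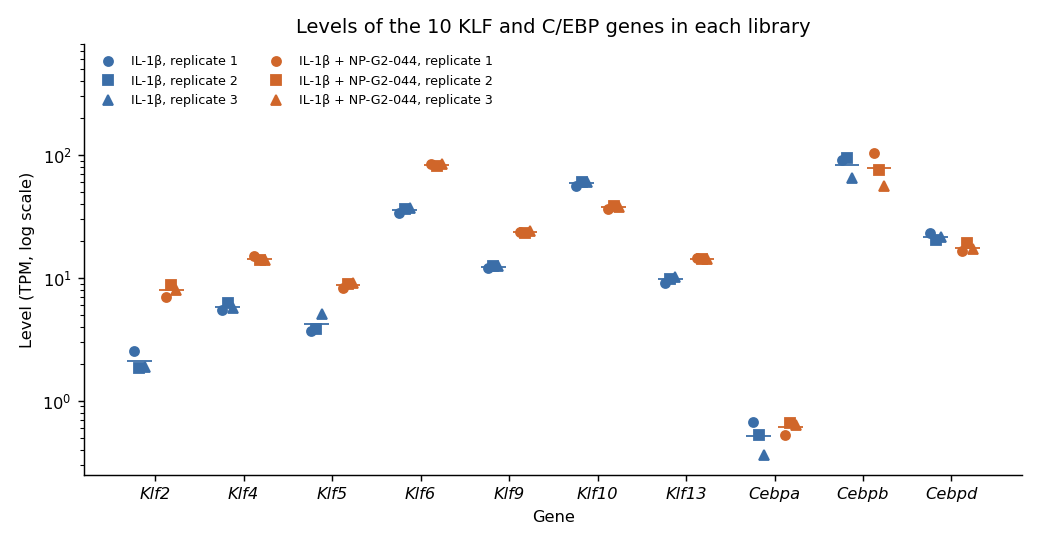
Level of each of the 10 genes in each library, in TPM on a log scale, with IL-1β libraries in blue and IL-1β plus NP-G2-044 libraries in orange; symbols mark the replicate number and lines the group mean. The groups separate for the KLF genes and for Cebpd, and overlap for Cebpa (0.36 to 0.67 TPM) and Cebpb (55.6 to 104.5 TPM).

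Gene positions are on mm10 (GRCm38) and span the whole gene in the GENCODE annotation, with exons counted in its longest coding transcript. Klf2 (Entrez gene 16598, chr8:72319033-72321656, 3 exons) and Klf4 (Entrez gene 16600, chr4:55527143-55532466, 5 exons), the closely related factors of vascular quiescence and of stem cell identity, showed the largest fold changes. Klf2 had 2.53, 1.86 and 1.89 TPM with IL-1β and 6.99, 8.71 and 8.02 TPM with the inhibitor. Each inhibitor library was thus far above every IL-1β library, although only 30 to 42 reads lay behind each IL-1β value and 121 to 154 behind the others. Klf2 rose 3.84-fold (log2 fold change 1.94, standard error 0.149, adjusted p = 4.13e-17, edgeR), and 1.75% of the tested genes had a larger log2 fold change. Klf4 had 5.48, 6.23 and 5.66 TPM in the IL-1β libraries and 15.0, 14.0 and 14.0 TPM in the others, again without overlap. Its rise was 2.53-fold (log2 fold change 1.34, standard error 0.0771, adjusted p = 3.96e-22, edgeR), from 163 to 180 reads per library to 444 to 467.

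Klf5 (Entrez gene 12224, chr14:99298691-99315036, 4 exons) and Klf6 (Entrez gene 23849, chr13:5861482-5870394, 4 exons) are known for roles in injury and remodeling responses. Klf5 had 3.71, 3.82 and 5.1 TPM with IL-1β and 8.27, 8.94 and 9.11 TPM with the inhibitor. The third IL-1β library was the highest of its group and still below every inhibitor library. Klf5 rose 2.13-fold (log2 fold change 1.09, standard error 0.126, adjusted p = 3.98e-11, edgeR), with a 95% interval of 0.84 to 1.34 on the log2 scale that includes the cutoff of 1. Klf6, with 33.8, 36.3 and 36.9 TPM against 84.5, 81.9 and 84.1 TPM, had the highest level of the risen genes. It rose 2.39-fold (log2 fold change 1.26, standard error 0.0333, adjusted p = 3.38e-37, edgeR), from 4477 reads summed over 3 libraries to 11266.

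Klf9 (Entrez gene 16601, chr19:23141226-23168134, 2 exons) and Klf13 (Entrez gene 50794, chr7:63886351-63938915, 2 exons) are paralogs that act mostly as repressors through the SIN3 co-repressor, and Klf9 is a classical target of the glucocorticoid and thyroid hormone receptors. Klf9 had 12.1, 12.5 and 12.4 TPM with IL-1β and 23.6, 23.3 and 24.3 TPM with the inhibitor. The groups were far apart, and the SD within groups, 0.0275 on the log2 CPM scale, was the smallest of any member. Klf9 rose 1.96-fold (log2 fold change 0.97, standard error 0.0467, adjusted p = 1.63e-25, edgeR), just short of the fold cutoff. Klf13 went from 9.17, 9.81 and 10.2 TPM to 14.6, 14.3 and 14.2 TPM, a smaller rise of 1.52-fold (log2 fold change 0.60, standard error 0.0469, adjusted p = 7.85e-17, edgeR).

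Klf10 (Entrez gene 21847, chr15:38291463-38300706, 4 exons), also known as TIEG1, a repressor induced by TGF-β, was the only KLF member that fell. It had 55.5, 60.1 and 60.2 TPM with IL-1β and 36.4, 38.7 and 37.8 TPM with the inhibitor, with no overlap between the groups. The level with IL-1β was 1.52 times that with the inhibitor (log2 fold change −0.61, standard error 0.039, adjusted p = 4.08e-20, edgeR). Klf10 was the most abundant KLF member with IL-1β, and Klf6 took that place with the inhibitor.

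Cebpd (Entrez gene 12609, chr16:15887286-15891031, 1 exon), the early cytokine-induced C/EBP, had 23.1, 20.2 and 21.4 TPM with IL-1β and 16.4, 19.1 and 17.2 TPM with the inhibitor. The highest inhibitor library lay just below the lowest IL-1β library. Cebpd fell by 0.27 on the log2 scale (standard error 0.0678, adjusted p = 0.000448, edgeR), the smallest called change of the 10 members. Its exons share 562 bases with those of Spidr on the opposite strand, and both genes had counts that were not whole numbers in all 6 libraries. Spidr went from a mean of 28.4 TPM to 25.3 TPM (log2 fold change −0.15, adjusted p = 0.00356, edgeR). The sources used here do not give whether counting used strand, and without strand the reads of such neighbours cannot be told apart.

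Cebpb (Entrez gene 12608, chr2:167688915-167690418, 1 exon), the main C/EBP of inflammatory gene induction, differed more between libraries of one group than between the groups. It had 90.9, 94.2 and 64.8 TPM with IL-1β and 104.5, 75.1 and 55.6 TPM with the inhibitor, so the groups overlapped fully and the highest and the lowest library were both inhibitor-treated. The CV was 19.4% with IL-1β and 31.4% with the inhibitor, where counting error alone would give 3.02% and 3.01% at 793 to 1459 reads per library. Its SD within groups, 0.38 on the log2 CPM scale, ranked 7 among the 8335 genes with a mean of at least 10 TPM, whose median was 0.0493. Cebpb did not pass the test (log2 fold change −0.06, standard error 0.298, adjusted p = 0.864, edgeR), with a 95% interval from 0.547-fold to 1.68-fold. Any change within those bounds is compatible with these libraries, so the result does not show that the groups were equal. The read count covers the gene as a whole and does not tell apart the activating and inhibitory proteins made from its single transcript. The neighbour Tmem189, which shares 312 exonic bases with Cebpb on the opposite strand, had 37.4 to 41.2 TPM with IL-1β and 42.5 to 45 TPM with the inhibitor, a far narrower spread.

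**Figure D2:**
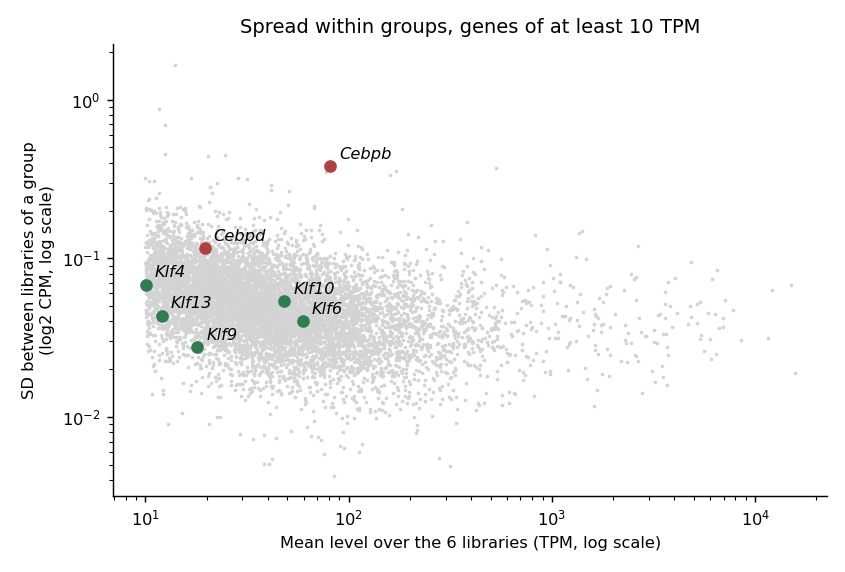
SD between libraries of a group (log2 CPM, log scale) against mean level (TPM, log scale) for the 8335 genes with a mean of at least 10 TPM in grey, with the 7 members that reach this level in green (KLF) and red (C/EBP). Cebpb lies at 0.38, above nearly all genes of its level, and Klf9 at 0.0275, low in the cloud.

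Cebpa (Entrez gene 12606, chr7:35119293-35121928, 1 exon) was barely detected. It had 0.67, 0.53 and 0.36 TPM with IL-1β and 0.53, 0.66 and 0.63 TPM with the inhibitor, from 9 to 18 reads per library, and the groups overlapped. The log2 fold change of 0.26 did not pass the test (standard error 0.31, adjusted p = 0.451, edgeR), and its 95% interval, from 0.775-fold to 1.84-fold, shows that a change of this size was not detectable at this depth.

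Levels of different genes can be compared in TPM, which is corrected for gene length. With IL-1β the order of mean TPM was Cebpb, Klf10, Klf6, Cebpd, Klf9, Klf13, Klf4, Klf5, Klf2 and Cebpa, and the 3 libraries of each gene lay above those of the next. With the inhibitor the order was Klf6, Cebpb, Klf10, Klf9, Cebpd, Klf13, Klf4, Klf5, Klf2 and Cebpa, and 3 pairs of neighbours overlapped, namely Klf6 with Cebpb, Klf13 with Klf4 and Klf5 with Klf2. Klf9 stood below Cebpd with IL-1β (12.1 to 12.5 against 20.2 to 23.1 TPM) and above it with the inhibitor (23.3 to 24.3 against 16.4 to 19.1 TPM).

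The rest of the KLF family moved in both directions. Of 10 further KLF genes, 9 had a row and 6 could be tested. Of these 6 genes, 3 were higher, 2 were lower and 1 did not pass the test, against 40.2% higher and 39.8% lower over all tested genes. The median log2 fold change of the 6 was 0.03. Klf11, a TGF-β-inducible paralog of Klf10, went the opposite way from it. Klf11 had 2.06, 1.86 and 1.75 TPM with IL-1β and 6.7, 6.79 and 7.17 TPM with the inhibitor (log2 fold change 1.90, standard error 0.102, adjusted p = 2.27e-23, edgeR). Klf16 (log2 fold change 0.51) and Klf3 (0.21) also rose, and Klf7 fell by 0.17 on the log2 scale while its TPM overlapped between the groups. Klf12 fell by 0.62 from 79 summed reads to 54, and Klf8 had 204 and 194 reads (log2 fold change −0.14, adjusted p = 0.384, edgeR). Klf1, Klf15 and Klf17 had too few reads, with at most 26 over the 3 libraries of a group.

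Summed over the 16 KLF genes with a row, the level was 197.7, 206.3 and 208.1 TPM with IL-1β and 284.4, 283.6 and 284.9 TPM with the inhibitor. The mean was 1.39 times as high with the inhibitor (204 ± 5.57 against 284.3 ± 0.644 TPM, SD, n = 3 each). Klf6 made up 17.5% ± 0.34 of this sum with IL-1β and 29.4% ± 0.446 with the inhibitor (SD, n = 3 each). The share of Klf10 went from 28.7% ± 0.58 to 13.2% ± 0.426 (SD, n = 3 each), so Klf10 had the largest share with IL-1β and Klf6 with the inhibitor. None of the related SP genes, which carry the same type of zinc fingers, was called higher. Of 7 tested SP genes, 5 fell, 0 rose and 2 did not pass the test, against 39.8% lower and 40.2% higher over all tested genes. The median log2 fold change of the 7 was −0.48. The summed level of the SP genes was 102.6 to 108.5 TPM in the IL-1β libraries and 81.8 to 84.4 TPM in the others. Sp7, the osteoblast factor osterix, changed most, from 156 summed reads to 33 (log2 fold change −2.30, standard error 0.248, adjusted p = 4.97e-12, edgeR), and Sp3, the most abundant, fell by 0.36 on the log2 scale.

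**Figure D3:**
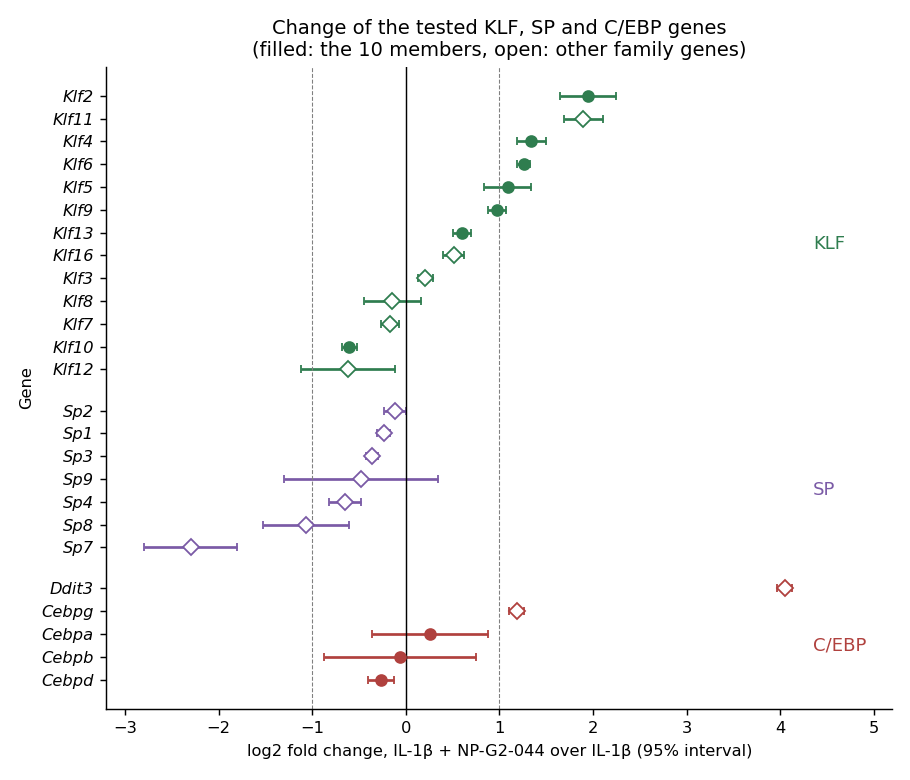
Log2 fold change (inhibitor libraries over libraries with IL-1β alone) with its 95% interval for each tested KLF, SP and C/EBP gene, filled for the 10 members and open for other family genes; dashed lines mark 1 and −1. Klf2 (1.94) and Klf11 (1.90) lead the KLF genes, the tested SP genes all lie below 0, and Ddit3 lies at 4.05.

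Among the C/EBP genes outside the 10, both that could be tested rose. Ddit3, which encodes CHOP, a C/EBP that dimerizes with the others and blocks their usual DNA binding, had 60.9, 68.3 and 67 TPM with IL-1β and 1211, 1271 and 1195 TPM with the inhibitor. It rose 16.6-fold (log2 fold change 4.05, standard error 0.039, adjusted p = 4.09e-57, edgeR), more than any member. Cebpg, a short C/EBP without an activation domain, had 14.6, 14.9 and 15.3 TPM against 33.7, 33.1 and 32.6 TPM (log2 fold change 1.18, standard error 0.0413, adjusted p = 1.23e-31, edgeR). Of the summed level of the 5 C/EBP genes, Cebpb held 44.6% ± 5.36 with IL-1β and 5.76% ± 1.73 with the inhibitor, and Ddit3 held 35.4% ± 3.92 and 90.4% ± 1.65 (SD, n = 3 each). Without Ddit3, the summed level was 101.8 to 129.8 TPM with IL-1β and 106 to 155.2 TPM with the inhibitor, so that the groups overlapped. Within these 4 genes the share of Cebpg went from 12.6% ± 2.1 to 26.1% ± 4.53 (SD, n = 3 each).

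**Figure D4:**
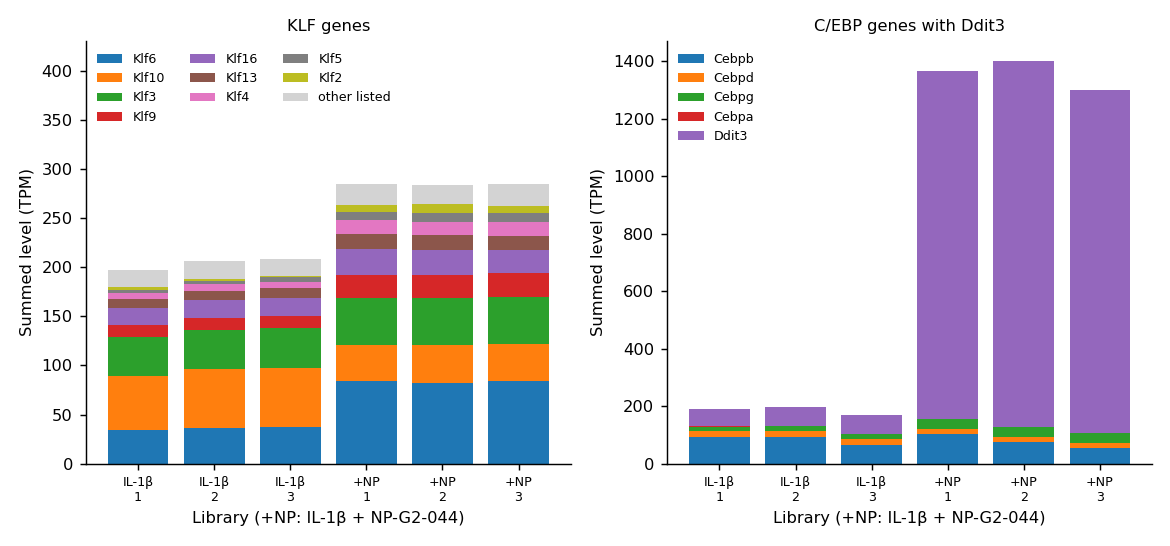
Summed level in TPM of the 16 KLF genes (left) and of 5 C/EBP genes including Ddit3 (right) in each library, with a colour per gene; the 2 panels have different vertical scales. The KLF sum lies at 197.7 to 208.1 TPM with IL-1β and 283.6 to 284.9 TPM with the inhibitor, and Ddit3 makes up most of the C/EBP sum in the inhibitor libraries.

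Genes known to act upstream of the members, on their proteins or together with them were counted from written lists, as were usual targets of the glucocorticoid receptor. Over all tested genes, 40.2% were higher and 39.8% lower, which are the shares to set beside each count. In the arm from the kinase ERK5 to MEF2, which induces Klf2 and Klf4, all 7 genes were tested, of which 6 rose and 1 fell, with a median log2 fold change of 0.52. Mapk7, which encodes ERK5, rose by 0.66 on the log2 scale (30.0 ± 0.85 to 46.0 ± 1.3 TPM, SD, n = 3 each) and Map3k3 by 0.59. Mef2c went from 238 summed reads to 22 and Mef2b from 5 to 92, and both stayed low, at most 2.56 TPM on average. Of 5 ubiquitin ligases that act on KLF proteins, 2 rose, Smurf1 by 2.06 and Wwp1 by 0.85 on the log2 scale, and 3 did not pass the test. For the glucocorticoid receptor and its usual targets, 2 of 7 tested genes rose and 5 fell, with a median of −0.16. Mt1 (log2 fold change 1.60) and Tsc22d3 (1.55) rose as Klf9 did, while Sgk1 (−1.38) and Dusp1 (−0.82) fell. Of 9 regulators of C/EBP proteins, 2 rose, 5 fell and 2 did not pass the test. The tribbles pseudokinase genes moved apart, with Trib3 at 5.06 and Trib2 at −2.49 and Trib1 at −0.92 on the log2 scale, and the C/EBP partner Atf4 rose by 2.30. Of 8 co-regulators that KLF proteins recruit, 2 rose and 5 fell, led by the SIN3 complex genes Sap30 (log2 fold change 1.15) and Sin3a (−0.67).

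Genes known to lie downstream were counted in the same way, beside the same shares of all tested genes (40.2% higher, 39.8% lower). Of 9 tested inflammatory and acute-phase genes with C/EBP sites, 8 fell and 1 rose, with a median log2 fold change of −3.08. Ptgs2, the prostaglandin synthase gene, was the 1 that rose (log2 fold change 0.39). Of the 8 that fell, 7 passed both cutoffs, against 10.1% of all tested genes in that direction. Orm1 went from 235 summed reads to 1, Hp from 117 to 1, C3 from 3700 to 191 and Nos2 from 13791 to 1643. Of the adipocyte genes, 3 of 9 could be tested and all 3 fell, namely Pparg (119 reads to 6), Fabp4 (47 to 6) and Scd1 (log2 fold change −0.53). Of the KLF2 and KLF4 target genes, 4 of 6 could be tested. Prg4, which encodes the joint lubricant lubricin, rose by 4.23 on the log2 scale, from 49 summed reads to 970. The cell cycle inhibitor gene Cdkn1a rose by 1.90, from only 42 summed reads to 166. S1pr1 fell by 2.55, from 597 summed reads to 107, and Nos3 had 36 reads against 58 (log2 fold change 0.61, adjusted p = 0.0646, edgeR).

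KLF2, KLF4 and C/EBP genes are also expressed in macrophages and endothelial cells. Of 7 macrophage markers, 2 could be tested, with Cd68 higher (12.4 ± 1.68 to 129.9 ± 5.48 TPM, SD, n = 3 each) and Cd14 lower (11.4 ± 1.62 to 4.89 ± 0.341 TPM, SD, n = 3 each). The summed level of the list was 23.8 to 24.6 TPM in the IL-1β libraries and 128.6 to 140 TPM in the others and thus moved with the KLF genes through Cd68, while Ptprc was at 0 in all 6 libraries, Adgre1 had no row, and Csf1r and Itgam averaged at most 0.217 TPM. The 5 endothelial markers with a row summed to 0.2 to 0.36 TPM with IL-1β and 0.58 to 0.73 TPM with the inhibitor, and the 6 epithelial markers to at most 1.35 TPM. Of 8 tested fibroblast markers, 7 fell and 1 rose, against 39.8% lower and 40.2% higher over all tested genes. The fibroblast list summed to 7576 to 7799 TPM with IL-1β and 2367 to 2475 TPM with the inhibitor. Most of this sum was S100a4 (mean 4313 to 730 TPM), Vim (2208 to 1326 TPM) and Col1a2 (1098 to 331 TPM). Col1a1 and Col3a1 were far lower (8.76 to 1.23 and 7.45 to 1.47 TPM), and Pdgfra was the gene that rose (2.36 to 8.69 TPM). Of the 5 tested chondrocyte markers, 3 fell and 1 rose. The part of these shifts in the KLF and C/EBP values was not tested.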

How the data were processed

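RNA-seq libraries of 3 samples per group were grouped by their titles. The authors deposited an expected count (estimated count) per gene and library, not normalized, with TPM and FPKM made per library. BGI sequenced and quantified the final libraries, and the submitters' processing notes name cutadapt, HISAT2 2.0, StringTie and the build mm10. The sources used here give no counting tool or strand setting. Neither FPKM nor the columns of group means entered any step. Counts (10.2% to 11.1% not whole) were rounded, filtered with filterByExpr (minimum count 10), scaled by TMM and tested with edgeR 4.0.16 (quasi-likelihood, robust) in R 4.3.3, with Benjamini-Hochberg adjustment over 11983 genes. The cutoffs were an adjusted p below 0.05 and, as in the study, a log2 fold change above 1 in size. Standard errors are the log2 fold change over the square root of F. The steps were also run on simulated counts with the same dispersion for all genes. That run does not cover genes with a spread like that of Cebpb, and no result here rests on it.

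Members and gene lists were chosen with earlier results of these data known. All 10 members are named, and from each list up to 4 genes with the largest called changes; all KLF, SP and C/EBP genes of the lists may be named, and marker genes, Nos3 and Ptgs2 were chosen as examples after their values were seen. Gene positions are from GENCODE vM21 (mm10) and promoters from RefSeq. Alternatives were DESeq2 1.42.0 and its size factors, library size alone, limma 3.58.1 (voom, or log2 of TPM plus 1 or 0.1), other filters, the replicate number as a block, and each library left out.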

Additional observations from a re-analysis of the deposited data

How the results depend on the processing

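Of the 10 members, 6 were higher and 2 lower at an adjusted p below 0.05 under each alternative that tested them all, whether in edgeR, DESeq2 or limma, and 4 were higher past both cutoffs except as follows. Requiring at least 10 CPM in at least 3 libraries left 7 members to test and 2 higher past both cutoffs, because Klf2 and Klf5 were no longer tested. On log2(TPM + 1), which lowers the change of genes at low levels, Klf5 had a log2 fold change of 0.92. Klf9 stayed between 0.89 and 0.99 in all 15 alternatives. Cebpb lay between −0.32 and 0.13 with single libraries left out and Cebpa between 0.04 and 0.49, and neither was called in any alternative. Cebpd kept its call in all 15, with an adjusted p of at most 0.0132.

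Deviations of same-numbered libraries correlated at −0.11, −0.03 and 0.0021 across genes. With 3 libraries per group, such correlations cannot show whether the replicate numbers in the labels pair the cultures. Cebpb was lowest in replicate 3 of both groups (64.8 and 55.6 TPM), while its highest library was replicate 2 with IL-1β and replicate 1 with the inhibitor. Its adjusted p was 0.608 with the replicate number as a block and 0.864 without it (edgeR). With the number as a block, 6 members were higher and 9498 genes were called in all, against 9584 without it. Across all genes, calls past both cutoffs were 776 higher and 1211 lower, and were 484 and 680 with the filter of 10 CPM and 516 and 804 on log2(TPM + 1). For the other family genes, alternatives added after seeing the data gave 0 to 2 other KLF genes lower at an adjusted p below 0.05. None of the other KLF genes was lower past both cutoffs, whereas 0 to 2 SP genes were. With no filter 1 SP gene and 2 other KLF genes were higher past both cutoffs, against 0 and 1. Without replicate 2 of IL-1β only 1 SP gene was lower past both cutoffs. Without replicate 3 of either group 1 other KLF gene was lower at an adjusted p below 0.05. Depth limits Cebpa, with 9 to 18 reads per library, and the low level of Klf2.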

Other observations

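The genes whose profile over the 6 libraries was nearest to that of a member (Euclidean distance of centred log2 CPM, among other tested genes with a mean of at least 10 TPM) are given as a description. Nearest to Klf2, the member that rose most, were Lrrc51 (distance 0.239, log2 fold change 1.94), Brd3os (0.311, log2 fold change 2.08) and Nfkbib (0.347, log2 fold change 1.76), the last encoding the NF-κB inhibitor IκBβ. Nearest to Klf10, the member that fell most, were Zfp141 (distance 0.0529, log2 fold change −0.63), Ppil1 (0.0705, log2 fold change −0.62) and Zfp326 (0.0722, log2 fold change −0.65). With 2 groups of 3 libraries such a profile holds little more than the size of the group difference.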
